A study of Homo sapiens with 44 samples.

Results

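The genes described here are 10 regulators of the epithelial-mesenchymal transition (EMT), the switch by which epithelial cells give up their junctions and polarity and become motile. Of these, 6 are the EMT transcription factors ZEB1, ZEB2, SNAI1, SNAI2, TWIST1 and TWIST2, and 4 are the epithelial regulators ESRP1, ESRP2, GRHL2 and OVOL1. They were chosen by name, and all 10 were found among the 58735 genes of the count table and among the 27315 symbols of the variance-stabilised table. ZEB1 and ZEB2 are zinc finger and homeodomain repressors that bind E-box sequences in the promoters of epithelial genes, and SNAI1 (Snail) and SNAI2 (Slug) are zinc finger repressors of the same kind. TWIST1 and TWIST2 are basic helix-loop-helix factors. ESRP1 and ESRP2 are splicing factors that keep epithelial exons in transcripts such as CD44 and FGFR2, GRHL2 is a grainyhead factor that activates junction genes and represses ZEB1, and OVOL1 is a zinc finger factor that also opposes ZEB1. Triple-negative breast cancer lines lack oestrogen and progesterone receptors and HER2 amplification and often hold part of the EMT programme.

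The study measured RNA in 14 libraries that fall into 7 groups of 2 biological replicates. In the first experiment MDA-MB-231 cells, a mesenchymal triple-negative line, received a control siRNA, an siRNA against RELA (siRelA) or an siRNA against RELB (siRelB), which encode 2 subunits of the transcription factor NF-kB. In the second experiment MDA-MB-231 cells and SUM149 cells, an inflammatory breast cancer line, each received a control siRNA or an siRNA against EZH2 (siEZH2), the methyltransferase of Polycomb repressive complex 2. All siRNAs were used at 20 nM, and cells were taken 48 h after transfection. Each line is a single cell line, and knockdown is transient and partial. The series asks, by its title, how EZH2 and NF-kB together shape gene expression in these cells, and no separate question on the EMT genes is stated. The 30 chromatin libraries were not analysed here. In these bulk samples, fewer cells that express a gene and less RNA per cell cannot be told apart.

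The first table holds counts of reads per gene, with 18.6 to 24.4 M counts per library, and levels are given as counts per M reads (CPM). The second table holds log2-like variance-stabilised values with a floor of 7.12. Counts on the scale of normalised reads were recovered from it and are called recovered counts below, with 26.2 to 28.7 M per library. The targeted genes were low in the libraries that carry their labels. RELA had 152.7 CPM in controls and 11.6 CPM under siRelA (log2 difference -3.71 ± 0.11), and RELB had 40.4 CPM in controls and 5.05 CPM under siRelB (-2.98 ± 0.16). RELB was also lower under siRelA, at 14.3 CPM (-1.48 ± 0.14). EZH2 was 9.08-fold lower under siEZH2 in MDA-MB-231 and 5.54-fold lower in the libraries labelled SUM149. RELB was lower under siEZH2 too. It went from 610.9 to 195 recovered counts in MDA-MB-231 (-1.02 ± 0.08) and from 496.4 to 286.7 in the libraries labelled SUM149 (-0.50 ± 0.08). RELA differed by -0.08 ± 0.06 and 0.01 ± 0.06 there. The part of RELB in the siEZH2 results below was not tested.

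The markers of both lines were checked before any result. ESR1 had at most 7 counts and PGR at most 20 counts in any library. ERBB2, which encodes HER2, had 86.8 CPM in the controls of the first experiment. In the second it had 1703 recovered counts in the MDA-MB-231 controls and 349 in those labelled SUM149. Amplification of ERBB2 was not measured. In MDA-MB-231 the 5 mesenchymal markers VIM, FN1, CDH2, ZEB1 and SPARC summed to between 38790 and 40525 recovered counts in the controls of the second experiment. Most of this was VIM (mean 34347) and FN1 (3950), with CDH2 at 124.2 and SPARC at 7.08. The 7 epithelial and basal markers CDH1, EPCAM, KRT5, KRT14, KRT17, CLDN4 and CLDN7 summed to 4058 to 4128 in these controls. Most of that was CLDN4 (2609) and EPCAM (1353). The same 7 summed to 3234 to 3408 in the controls labelled SUM149. The markers of the libraries labelled SUM149 were mixed and did not all match the epithelial state for which that line is known. In their 2 controls VIM stood at 62193 and 64843 recovered counts, FN1 at 200019 and 218257, CDH2 at 5064 and 5310 and DCN, a fibroblast matrix gene, at 2024 and 2201. CDH1 (E-cadherin) stood at 116.3 and 101.8 recovered counts, CLDN4 at 21.3 and 5.6, and KRT14 at 1.6 and 0, while EPCAM (1594 and 1460), KRT5 (1014 and 1027) and KRT17 (248.4 and 249.8) were present. CLDN7 had a mean of 400.7, against 89.6 in the MDA-MB-231 controls, and the CDH1 mean of 109 was above the 24.2 there. SPARC was at 0 in both controls labelled SUM149. Because the markers were mixed, these libraries are called the libraries labelled SUM149 throughout. The members called under siEZH2 are also given from a fit to 1 line at a time. The 6 fibroblast markers summed to 2217 to 2351 recovered counts in the controls and 4632 to 4872 under siEZH2 of those libraries, nearly all of it DCN, with PDGFRA, LUM and COL3A1 at 0 in both controls. In MDA-MB-231 the same sum was 292.4 to 303.5 in controls and 401.1 to 447.6 under siEZH2. In the first experiment it was 691 to 749 counts in controls, 1048 to 1405 under siRelA and 735 to 797 under siRelB. The 5 haematopoietic markers summed to at most 117.9 and the 3 endothelial markers to at most 54 in any library, with CD3E at 0 throughout. The part of these genes in the results below was not tested.

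The promoter windows of 4 genes are shown because the E-box CACCTG, read on either strand, is the sequence that ZEB and SNAIL proteins bind. Each window runs from 250 bases before to 50 bases after a RefSeq transcript start on GRCh38.p14, is written 5′ to 3′ on the gene's own strand, and has each E-box (CACCTG, or CAGGTG on the other strand) in capitals. The first pair are members. The second pair are epithelial genes on the list of genes repressed by ZEB and SNAIL: PATJ, a polarity scaffold, and CLDN7, a tight junction claudin, both chosen after their values were seen.
ZEB1, chr10:31318966-31319265, plus strand: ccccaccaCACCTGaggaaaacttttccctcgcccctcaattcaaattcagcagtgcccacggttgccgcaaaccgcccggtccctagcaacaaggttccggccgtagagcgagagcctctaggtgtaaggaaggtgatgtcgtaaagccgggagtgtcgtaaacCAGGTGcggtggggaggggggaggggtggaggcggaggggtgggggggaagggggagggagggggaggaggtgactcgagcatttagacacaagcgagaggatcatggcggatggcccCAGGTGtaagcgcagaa
ZEB2, chr2:144520070-144520369, minus strand: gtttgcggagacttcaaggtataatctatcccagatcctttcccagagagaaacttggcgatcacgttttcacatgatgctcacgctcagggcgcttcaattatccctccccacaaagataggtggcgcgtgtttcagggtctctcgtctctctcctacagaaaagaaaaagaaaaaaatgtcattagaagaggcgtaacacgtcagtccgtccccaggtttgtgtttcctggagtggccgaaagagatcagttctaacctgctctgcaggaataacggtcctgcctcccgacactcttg
PATJ, chr1:61742230-61742529, plus strand: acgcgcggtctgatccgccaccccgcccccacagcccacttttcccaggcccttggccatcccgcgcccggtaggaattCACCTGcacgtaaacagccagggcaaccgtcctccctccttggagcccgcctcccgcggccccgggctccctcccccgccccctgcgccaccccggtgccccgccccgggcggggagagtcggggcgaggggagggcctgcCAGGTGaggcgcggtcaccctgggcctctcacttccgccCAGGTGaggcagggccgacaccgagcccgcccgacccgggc
CLDN7, chr17:7262429-7262728, minus strand: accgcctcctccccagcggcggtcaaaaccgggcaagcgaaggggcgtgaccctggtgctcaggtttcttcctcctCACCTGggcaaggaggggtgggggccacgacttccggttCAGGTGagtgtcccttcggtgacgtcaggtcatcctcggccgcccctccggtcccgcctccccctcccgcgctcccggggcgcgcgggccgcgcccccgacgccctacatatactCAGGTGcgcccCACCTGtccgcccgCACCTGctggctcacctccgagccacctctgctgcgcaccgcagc
ZEB1 has 3 E-boxes in the window printed, PATJ has 3, CLDN7 has 5, and ZEB2 has none. The reference table held windows for ZEB1 (7 windows, 2 of them with the E-box), ZEB2 and TWIST2, and neither the ZEB2 nor the TWIST2 window held the E-box. Among all 27305 genes with a window 24.1% had a window that held it. Of the epithelial genes that ZEB and SNAIL repress 15 of 20 with a window held it (75.0%), against 3 of 21 mesenchymal genes (14.3%). A match says only that the letters are present.

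In MDA-MB-231 controls of the first experiment only 5 of the 10 members had more than a trace of RNA. Per length (CPM per kilobase of merged exons) SNAI2 stood highest at 14 ± 1.13 (SD, n = 2), followed by ZEB1 at 9.93 ± 0.948, ESRP2 at 1.96 ± 0.0707, SNAI1 at 0.747 ± 0.00849 and ZEB2 at 0.463 ± 0.0566. No 2 neighbours in this order overlapped. The order of SNAI1 and ZEB2 depends on the length used: by the longest transcript ZEB2 stood at 1.26 ± 0.156 and SNAI1 at 0.747. TWIST1, TWIST2 and ESRP1 had 0 counts in all 6 libraries, which allows up to 0.123 to 0.161 CPM (3 counts) per library, a limit for counting error only. GRHL2 had 1 count in 1 control library and 0 elsewhere, and OVOL1 had 7 counts in the first siRelA library and 0 elsewhere.

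ZEB1 fell under the siRNAs against both NF-kB subunits. ZEB1 (ENSG00000148516, chromosome 10, 31318495 to 31529814 on the plus strand of GRCh38) stood at 80.1 and 91.6 CPM in the 2 controls. It stood at 60.9 and 55.9 CPM under siRelA and at 63.0 and 60.9 CPM under siRelB. Both knockdown groups lay below both controls. The log2 difference was -0.54 ± 0.10 under siRelA (edgeR adjusted p = 0.00124, 1.47-fold lower) and -0.45 ± 0.10 under siRelB (adjusted p = 0.00555, 1.38-fold lower). The knockdowns share the same 2 controls, so these values are not independent. Without the second control library, the one with the higher ZEB1 level, the siRelB difference was -0.35 with an adjusted p of 0.0986. Between siRelA and siRelB ZEB1 differed by -0.09 ± 0.10 (adjusted p = 0.545).

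SNAI2 fell under siRelB and was not called under siRelA. SNAI2 (ENSG00000019549, chromosome 8), the EMT factor with the highest level per length, stood at 43.4 and 48.4 CPM in the 2 controls, at 46.8 and 48.7 with siRelA, and at 28.7 and 29.8 with siRelB. Only the siRelB libraries stood apart, below the other 4. The log2 difference was -0.63 ± 0.11 under siRelB (edgeR adjusted p = 8.5e-04, 1.57-fold lower) and 0.07 ± 0.11 under siRelA (adjusted p = 0.727). The direct difference of siRelA minus siRelB was 0.70 ± 0.11 (adjusted p = 1.8e-04).

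SNAI1, whose protein is short-lived and whose transcript is scarce in this line, had 29 and 29 counts in the 2 controls, 51 and 59 with siRelA, and 24 and 18 with siRelB. Both siRelA libraries lay above the other 4, but the log2 difference of 0.90 ± 0.46 did not pass the test (edgeR adjusted p = 0.197), nor did siRelA minus siRelB (1.12 ± 0.47, adjusted p = 0.0859). At these counts the standard error is about as wide as the effects seen for ZEB1 and SNAI2. ZEB2 stood at 11.1 and 13.2 CPM in the 2 controls, at 12.6 and 9.60 with siRelA, and at 11.5 and 11.1 with siRelB, and its groups overlapped (-0.11 ± 0.19 and -0.08 ± 0.19). ESRP2 stood at 10.4 and 9.92 CPM in the 2 controls, at 13.2 and 9.92 with siRelA, and at 10.2 and 8.09 with siRelB. Its groups overlapped too, with differences of 0.20 ± 0.20 and -0.13 ± 0.20.

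Of the 10 members 5 passed the filter on low counts. Under siRelA 1 of these 5 was called (adjusted p under 0.05), beside 19.0% of all 15930 genes tested. Under siRelB 2 of 5 were called, beside 18.3%, and between siRelA and siRelB 1 of 5, beside 29.9%. With so few members the counts are not set apart from those shares.

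**Figure D1:**
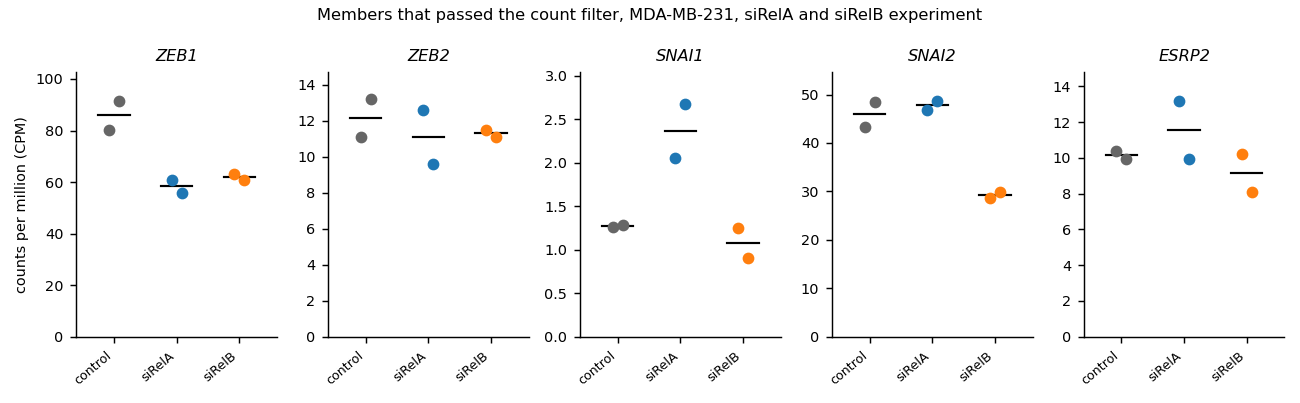
Level in CPM (y axis, from 0) of the 5 members that passed the count filter in the 6 MDA-MB-231 libraries of the first experiment. Points are libraries and bars the means of 2. ZEB1 lies lower under both siRNAs (58.4 and 62.0 against 85.8 CPM), SNAI2 lies lower only under siRelB (29.3 against 45.9 CPM), and the groups of ZEB2 and ESRP2 overlap.

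ZEB1 overlaps ZEB1-AS1, a long noncoding RNA on the opposite strand, and ESRP2 overlaps NFATC3, also on the opposite strand. The strand setting of the counting is not given in the sources used here, so reads of overlapping stretches cannot be told apart. ZEB1-AS1 had 76 to 118 counts per library against 1205 to 2068 for ZEB1, and it differed by 0.05 ± 0.25 under siRelA and -0.08 ± 0.26 under siRelB. NFATC3 differed by 0.25 ± 0.15 and -0.07 ± 0.16. Neither was called.

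The other genes of the programme were described from gene lists. Of 34 epithelial genes known to be repressed by ZEB or SNAIL proteins, 27 were tested in the first experiment. Under siRelA 9 rose and 3 fell (median 0.14, against 0.02 over all genes). The largest changes were those of SPINT1, a protease inhibitor of epithelial surfaces (1.75 to 5.75 CPM, log2 difference 1.72 ± 0.36), ST14, the membrane protease matriptase (1.07 ± 0.29), CLDN7 (1.07 ± 0.21) and LLGL2, a basolateral polarity protein (0.98 ± 0.18). Under siRelB none rose and 8 fell (median -0.13), among them MAL2 (-0.78 ± 0.16), the tight junction protein OCLN (-0.70 ± 0.19), EPCAM (-0.66 ± 0.15) and CDS1 (-0.62 ± 0.20). The direct comparison of siRelA with siRelB called 13 of 27 higher and 3 lower (median 0.41), 59.3% of the list beside 29.9% of all genes. The called share of the list was 44.4% under siRelA and 29.6% under siRelB, beside 19.0% and 18.3% of all genes.

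Of 32 mesenchymal genes 29 were tested. Under siRelA 6 rose and 5 fell, with MSN (moesin, -1.85 ± 0.07), CCN1 (-1.01 ± 0.09), COL5A1 (1.09 ± 0.08) and COL1A1 (0.93 ± 0.14) the largest. Under siRelB 2 rose and 7 fell, with CCN1 (-0.80 ± 0.09), TPM1 (-0.78 ± 0.09), FSTL1 (-0.49 ± 0.09) and MMP14 (0.61 ± 0.07). The called share was 37.9% and 31.0%. VIM was not called under either siRNA (0.07 ± 0.08 and -0.14 ± 0.08).

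Of 27 other EMT transcription factors 21 were tested. Under siRelA 2 rose, FOXQ1 (0.77 ± 0.14) and SOX9 (0.26 ± 0.09), and 2 fell, TCF3 (-0.38 ± 0.08) and FOSL1 (-0.31 ± 0.08). Under siRelB none rose and 5 fell, among them HMGA2, an architectural factor that acts upstream of SNAI1 and TWIST1 (-0.70 ± 0.12), SMAD2 (-0.36 ± 0.12), TCF3 (-0.35 ± 0.08) and TCF12 (-0.32 ± 0.10). The median was 0.09 under siRelA and -0.30 under siRelB, and the called share of 19.0% under siRelA was that of all genes, with 23.8% under siRelB. Of 28 other epithelial transcription factors and splicing regulators 22 were tested, of which 2 rose and 4 fell under siRelA, and 3 rose and 8 fell under siRelB (27.3% and 50.0% called). The risers were ID proteins, which block basic helix-loop-helix factors of the E protein class: ID3 (2.04 ± 0.15) and ID1 (1.32 ± 0.13) under siRelA, and ID2 (2.88 ± 0.78, from 0.198 to 1.47 CPM), ID3 (1.67 ± 0.15) and ID1 (0.99 ± 0.13) under siRelB. The splicing factor MBNL1 fell under siRelA (-0.80 ± 0.09), and CELF1 fell under siRelB (-1.16 ± 0.09).

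Of 32 cofactors and stability factors of SNAIL and ZEB proteins 31 were tested. Under siRelA 1 rose and 7 fell, and under siRelB 2 rose and 4 fell, 25.8% and 19.4% of the list, shares not far from those of all genes. CSNK2A1, a catalytic subunit of casein kinase 2 (-0.77 ± 0.09), AJUBA, a LIM protein and Snail corepressor (-0.61 ± 0.08), and FBXW7, a ubiquitin ligase subunit (-0.59 ± 0.15), were among the 7 that fell under siRelA. PAK1, a kinase that phosphorylates Snail, was the 1 that rose there (0.72 ± 0.11), and it rose under siRelB too (0.67 ± 0.11). AJUBA rose under siRelB (0.61 ± 0.08), and the direct difference was -1.21 ± 0.08 (edgeR adjusted p = 2.2e-08). SMARCA4, a chromatin remodeller that ZEB1 recruits, fell under siRelB (-0.69 ± 0.09). Of 15 genes whose exons are under ESRP control 14 were tested: 3 rose and 1 fell under siRelA, and 1 rose and 4 fell under siRelB (28.6% and 35.7% called). The values are summed over transcripts, so splicing itself was not measured.

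In the second experiment silencing EZH2 raised ZEB1 and SNAI2 and lowered ESRP2 in both sets of libraries. ZEB1 stood at 1261 and 1198 recovered counts in the MDA-MB-231 controls, against 3216 and 3284 under siEZH2. The libraries labelled SUM149 had 1218 and 1260 in controls, against 2417 and 2267 under siEZH2. Every siEZH2 library lay above every control. The log2-like difference was 1.24 ± 0.05 in MDA-MB-231 (limma adjusted p = 1.1e-09, 2.64-fold higher) and 0.80 ± 0.05 in the libraries labelled SUM149 (adjusted p = 7.3e-08, 1.89-fold). The increase was smaller in the latter, with a difference between the effects (libraries labelled SUM149 minus MDA-MB-231) of -0.44 ± 0.08 (adjusted p = 0.0013). ZEB1-AS1 did not rise with it. It went from 134.9 recovered counts to 106.1 in MDA-MB-231 (-0.15 ± 0.06, an adjusted p of 0.05 after rounding and just inside the threshold) and differed by 0.11 ± 0.06 in the other line.

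SNAI2 stood at 766.2 and 801.4 recovered counts in the MDA-MB-231 controls, against 1066 and 1032 under siEZH2. It stood at 1732 and 1801 in the controls labelled SUM149, against 4023 and 3894 under siEZH2. The 4 groups did not overlap. The differences were 0.33 ± 0.05 (limma adjusted p = 1.6e-04, 1.34-fold higher) and 1.06 ± 0.05 (adjusted p = 5.2e-09, 2.24-fold). Here the order was the opposite of that of ZEB1, with the larger increase in the libraries labelled SUM149 (0.73 ± 0.08, adjusted p = 2.4e-05).

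ZEB2 stood at 258.3 and 242.6 recovered counts in the MDA-MB-231 controls, against 355.2 and 295.1 under siEZH2. The controls labelled SUM149 had 491.2 and 563.8, against 920.8 and 842.1 under siEZH2. The groups did not overlap, but the 2 MDA-MB-231 siEZH2 libraries differed by more than the nearer of them did from the controls. The difference of 0.22 ± 0.08 in MDA-MB-231 (limma adjusted p = 0.0256, 1.30-fold) was no longer called without either MDA-MB-231 control library (0.24 with adjusted p = 0.0738, and 0.19 with 0.142), without the first siEZH2 library (0.14, 0.213) or after quantile normalisation (0.15, 0.108). In the libraries labelled SUM149 the difference was 0.55 ± 0.08 (adjusted p = 3.7e-05, 1.67-fold). The difference between the effects was 0.33 ± 0.11 (adjusted p = 0.041), and it was not called without each of 6 of the 8 libraries in turn, with no filter (adjusted p = 0.075) or on recovered counts (0.39, adjusted p = 0.124).

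SNAI1 was scarce in MDA-MB-231, with 15.2 and 33.1 recovered counts in controls and 12.5 and 14.8 under siEZH2, a difference of -0.14 ± 0.08 that was not called (limma adjusted p = 0.183). In the libraries labelled SUM149 it stood at 93.2 and 120.4 in controls, against 250.4 and 202.6 under siEZH2. Both siEZH2 libraries lay above both controls, a rise of 0.51 ± 0.08 (adjusted p = 1.6e-04, 2.12-fold). The effects differed by 0.64 ± 0.12 (adjusted p = 0.00176). SNAI1 passed the limma filter only through the libraries labelled SUM149, so no line difference is read from this call. On the log2-like scale the change of so rare a transcript is understated. On recovered counts edgeR gave -0.79 in MDA-MB-231 (adjusted p = 0.125), 1.10 in the libraries labelled SUM149 (adjusted p = 2.7e-04) and 1.89 for the difference (adjusted p = 0.0106).

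The TWIST genes passed the filter only through the libraries labelled SUM149, and TWIST2 only through the 2 of them under siEZH2. In MDA-MB-231 TWIST1 had 1 read in each control (0.9 and 0.8 recovered counts) and was at 0 under siEZH2, and TWIST2 was at 0 in all 4 libraries. In the libraries labelled SUM149 TWIST1 stood at 395.6 and 389.4 recovered counts in controls and at 508.6 and 542.9 under siEZH2. This was a rise of 0.28 ± 0.06 (limma adjusted p = 0.00101, 1.34-fold). TWIST2 stood at 63.8 and 44.8 in controls and at 71.4 and 83.7 under siEZH2, a difference of 0.17 ± 0.06 (adjusted p = 0.0319). Only the siEZH2 values of 8.13 and 8.21, against 8.08 and 7.93 in controls, exceeded the floor by 1 or more, so TWIST2 was tested because it was high there, and no rise is read from its call. The call was also lost without the second control library (0.09, adjusted p = 0.247), with no filter (adjusted p = 0.0543), on recovered counts (0.52, adjusted p = 0.0909), after quantile normalisation (0.10, adjusted p = 0.179) and in the fit to these 4 libraries alone (0.17, adjusted p = 0.0874). The difference between the TWIST1 effects was 0.40 ± 0.08 (adjusted p = 0.00403), but on recovered counts its adjusted p was 0.213 in data where MDA-MB-231 held at most 1 read per library.

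ESRP2 was the epithelial regulator with the most RNA and the only one that passed the filter. It stood at 667.8 and 651.4 recovered counts in the MDA-MB-231 controls, against 225.8 and 294.0 under siEZH2. The libraries labelled SUM149 had 1836 and 1997 in controls, against 948.9 and 959.1 under siEZH2. All siEZH2 libraries lay below the controls of their own line. The differences were -0.88 ± 0.07 in MDA-MB-231 (limma adjusted p = 4.0e-07, 2.54-fold lower) and -0.84 ± 0.07 in the libraries labelled SUM149 (adjusted p = 6.1e-07, 2.01-fold lower). The difference between the effects was 0.04 ± 0.10 (adjusted p = 0.841). NFATC3, which overlaps it on the other strand, differed by -0.04 ± 0.08 and -0.03 ± 0.08.

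ESRP1, GRHL2 and OVOL1 did not pass the filter of the limma fit. ESRP1 had 3.8 and 8.6 recovered counts in the MDA-MB-231 controls, against 1.0 and 0.7 under siEZH2. Its groups overlapped in the libraries labelled SUM149, with 53.9 and 58.5 in controls against 51.6 and 74.0 under siEZH2. GRHL2 had 10.4 and 5.9 in the MDA-MB-231 controls, against 1.0 and 0 under siEZH2, and in the libraries labelled SUM149 13.1 and 40.4 in controls, against 41.2 and 34.3 under siEZH2. OVOL1 had 1.9 and 0.8 in the MDA-MB-231 controls, against 0 in both siEZH2 libraries, and 1.6 and 1.1 against 5.9 and 4.0 in the libraries labelled SUM149. All 3 were thus at 1.0 recovered count or less in each siEZH2 library of MDA-MB-231, at or near the level of 1 read. ESRP1 and GRHL2 were tested by edgeR on recovered counts, where both were called lower in MDA-MB-231 (adjusted p = 0.0235 and 0.0178) and neither was called in the libraries labelled SUM149 (adjusted p = 0.6 and 0.296). No fold is given, since the siEZH2 libraries of MDA-MB-231 held at most 1 read of either. In that edgeR fit the effects differed for GRHL2 (adjusted p = 0.0361) and not for ESRP1 (adjusted p = 0.0596). Both genes passed its filter only through the libraries labelled SUM149, so no line difference is read from this. With no filter, limma gave differences in MDA-MB-231 of -0.29 ± 0.10 for GRHL2 (adjusted p = 0.041), -0.14 ± 0.05 for OVOL1 (adjusted p = 0.0371) and -0.19 ± 0.07 for ESRP1 (adjusted p = 0.057), all of a few reads.

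**Figure D2:**
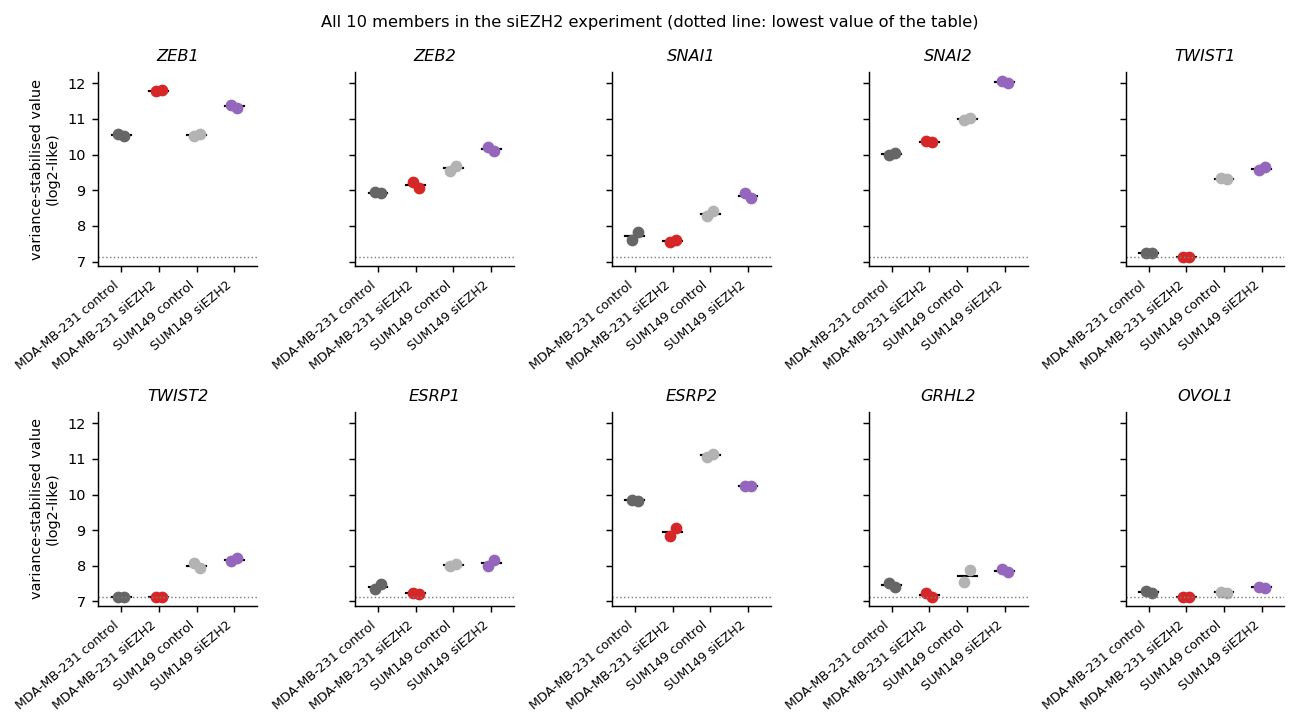
Variance-stabilised values (y axis, log2-like) of all 10 members in the 8 libraries of the second experiment; points are libraries, bars are means of 2, and the dotted line is the floor of the table at 7.12. The 4 groups are named by their labels. ZEB1 and SNAI2 lie higher and ESRP2 lower under siEZH2 in both, while TWIST1 and TWIST2 lie on or near the floor in MDA-MB-231.

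In all, 7 of the 10 members passed the filter in the second experiment. In MDA-MB-231 siEZH2 raised 3 and lowered 1 of the 7, beside 56.6% of all 12356 genes called. In the libraries labelled SUM149 6 were called higher, TWIST2 among them, and 1 lower, beside 58.0% of all genes. With most genes called, a call by itself sets no member apart. The effects differed between the lines for 5 of 7 members, beside 21.5% of all genes. SNAI2, ZEB2, SNAI1 and TWIST1 had the more positive effect in the libraries labelled SUM149 and ZEB1 the less positive. SNAI1 and TWIST1 passed the filter only through those libraries, and TWIST1, with at most 1 read per library in MDA-MB-231, could show no effect there. No line difference is therefore read from those 2 calls, and the 5 of 7 is not set against the share of all genes. Fitted with its own 4 libraries only, MDA-MB-231 kept 4 members called and the other set 6, with TWIST2 the one lost.

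**Figure D3:**
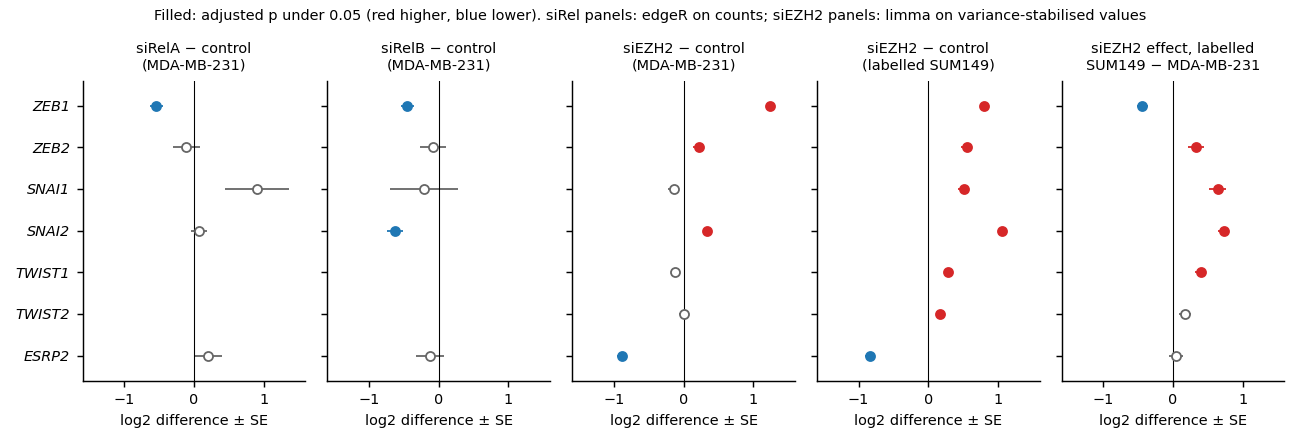
Log2 difference (x axis) with its standard error for each tested member (rows) in 5 comparisons (panels). Filled points have an adjusted p under 0.05 (red higher, blue lower), open points do not. The left 2 panels share their controls. ESRP2 lies near -0.88 and -0.84 under siEZH2, and ZEB1 lies below 0 in both siRel panels and above 0 in both siEZH2 panels.

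ZEB1 and ESRP2, which moved apart under siEZH2, were also set against each other within each library. The ratio restates the differences already given for these libraries and adds no separate evidence. The ratio of ZEB1 to ESRP2 recovered counts was 1.89 and 1.84 in the MDA-MB-231 controls against 14.2 and 11.2 under siEZH2. It was 0.663 and 0.631 against 2.55 and 2.36 in the libraries labelled SUM149. Every siEZH2 library had a higher ratio than every control of both lines. In the first experiment the ratio of counts was 7.69 and 9.23 in the 2 controls, 4.61 and 5.64 with siRelA, and 6.17 and 7.53 with siRelB. There the siRelA libraries lay below the controls, and the siRelB libraries lay below them too, with 7.53 just under 7.69. These ratios are not per length and were read from tables made with different tools, so they are compared only within an experiment.

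**Figure D4:**
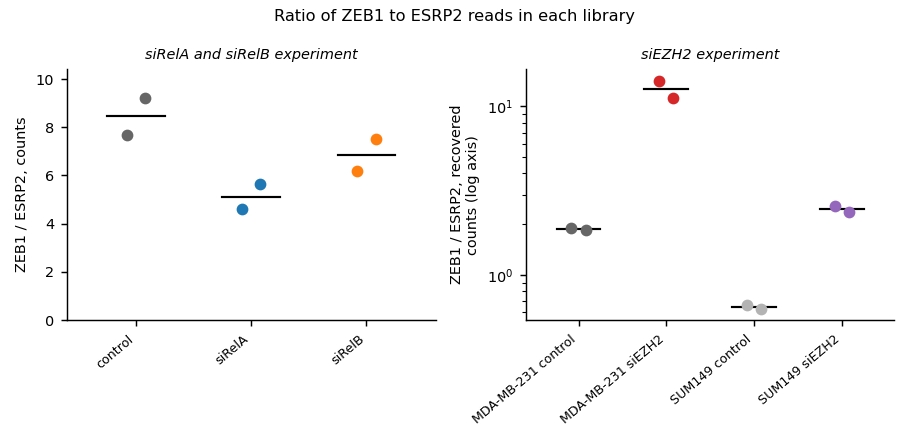
Ratio of ZEB1 to ESRP2 reads in each library; left, counts of the first experiment (linear axis from 0), right, recovered counts of the second experiment (log axis). Points are libraries and bars are means of 2. Under siEZH2 the ratio rises from 1.89 and 1.84 to 14.2 and 11.2 in MDA-MB-231 and from 0.663 and 0.631 to 2.55 and 2.36 in the libraries labelled SUM149.

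The controls of both lines differed in 6 of the 7 tested members, beside 82.8% of all genes. TWIST1, TWIST2 and SNAI1 passed the filter only through the libraries labelled SUM149, which fixes the direction of their difference. TWIST1 differed by 2.09 ± 0.06, from 1 read per library to 395.6 and 389.4 recovered counts. TWIST2 differed by 0.88 ± 0.06 and SNAI1 by 0.64 ± 0.08. ESRP2 (1.25 ± 0.07, 2.91-fold), SNAI2 (0.96 ± 0.05, 2.25-fold) and ZEB2 (0.67 ± 0.08, 2.11-fold), which passed in both lines, were higher in the libraries labelled SUM149. ZEB1 did not differ beyond its spread (0.01 ± 0.05, limma adjusted p = 0.875). Per length the order in MDA-MB-231 controls was SNAI2 (9.06 ± 0.339), ZEB1 (5.38 ± 0.163), ESRP2 (4.82 ± 0.0566), SNAI1 (0.537 ± 0.285) and ZEB2 (0.363 ± 0.0141), of which SNAI1 and ZEB2 overlapped. By the longest transcript ZEB2 (0.992 ± 0.0396) stood above SNAI1, and ZEB1 (7.46 ± 0.226) and ESRP2 (7.29 ± 0.0849) overlapped. In the libraries labelled SUM149 it was SNAI2 (18.9 ± 0.354), ESRP2 (12.9 ± 0.707), TWIST1 (6.88 ± 0.12), ZEB1 (5.02 ± 0.0919), SNAI1 (2.19 ± 0.382), TWIST2 (0.891 ± 0.225) and ZEB2 (0.706 ± 0.0636), of which TWIST2 and ZEB2 overlapped. By the longest transcript ZEB2 (1.92 ± 0.177) stood above TWIST2 (1.42 ± 0.361) and overlapped SNAI1. ESRP1 (0.403 ± 0.0205), GRHL2 (0.155 ± 0.111) and OVOL1 (0.0127 ± 0.00339) came last. Of the 26 mesenchymal genes tested, 8 were higher and 16 lower in the controls labelled SUM149 (median -0.48). Of the 26 tested epithelial genes that ZEB and SNAIL repress, 6 were higher and 18 lower (median -0.85). The called share was 92.3% of each list, beside 82.8% of all genes.

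Of the epithelial genes that ZEB and SNAIL repress, 26 were tested under siEZH2. In MDA-MB-231 17 fell and 5 rose (median -0.35, against 0.00 over all genes), and in the libraries labelled SUM149 16 fell and 4 rose (median -0.36). The called share of the list was 84.6% and 76.9%, beside 56.6% and 58.0% of all genes. EPCAM, an epithelial adhesion molecule, fell from 1353 to 537.2 recovered counts in MDA-MB-231 (-1.03 ± 0.07) and from 1527 to 170.6 in the libraries labelled SUM149 (-2.16 ± 0.07). The signalling adaptor SH2D3A (-1.06 ± 0.07 and -1.02 ± 0.07) and the desmosome protein PKP2 (-0.89 ± 0.07 and -1.37 ± 0.07) fell in both. CDH1 fell from 24.2 to 4.27 in MDA-MB-231 (-0.35 ± 0.06) and rose from 109.0 to 151.5 in the libraries labelled SUM149 (0.21 ± 0.06), and those effects differed by 0.55 ± 0.09 (limma adjusted p = 6.5e-04). CDH1 passed the filter only through the libraries labelled SUM149. Of the 2 genes whose E-box windows are printed above, PATJ fell in both (-0.55 ± 0.07 and -0.39 ± 0.07) and CLDN7 rose in both (0.56 ± 0.06 and 0.31 ± 0.06). Of the tested epithelial genes with a window, 6 of the 9 with the E-box and 3 of the 5 without it fell in MDA-MB-231, and 5 of 9 and 3 of 5 fell in the libraries labelled SUM149.

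Of the 32 mesenchymal genes 26 were tested. In MDA-MB-231 15 rose and 5 fell (median 0.34), and in the libraries labelled SUM149 17 rose and 3 fell (median 0.37). The called share was 76.9% in each, beside 56.6% and 58.0% of all genes. The mesenchymal cadherin CDH11 rose in both (609.5 to 4225 recovered counts, 2.38 ± 0.07, and 136.9 to 1267, 2.09 ± 0.07), as did COL5A1 (1.36 ± 0.07 and 2.03 ± 0.07). LOX (2.16 ± 0.08) and TNC (1.69 ± 0.06) were among the largest in MDA-MB-231, and ITGA5 (1.48 ± 0.07) and MMP14 (1.45 ± 0.07) in the libraries labelled SUM149. VIM rose in both (0.57 ± 0.07 and 0.41 ± 0.07). The fibroblast marker sums given above rose too, but PDGFRB and COL1A1 are on both lists. In MDA-MB-231 the sum rose mainly through PDGFRB (37.9 to 193.3 recovered counts), while COL1A1 (183.4 to 167.3) and LUM (67.9 to 48.8) were lower. In the libraries labelled SUM149 it rose mainly through DCN (2113 to 4480), with PDGFRB at 8.29 in controls and 7.47 under siEZH2.

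**Figure D5:**
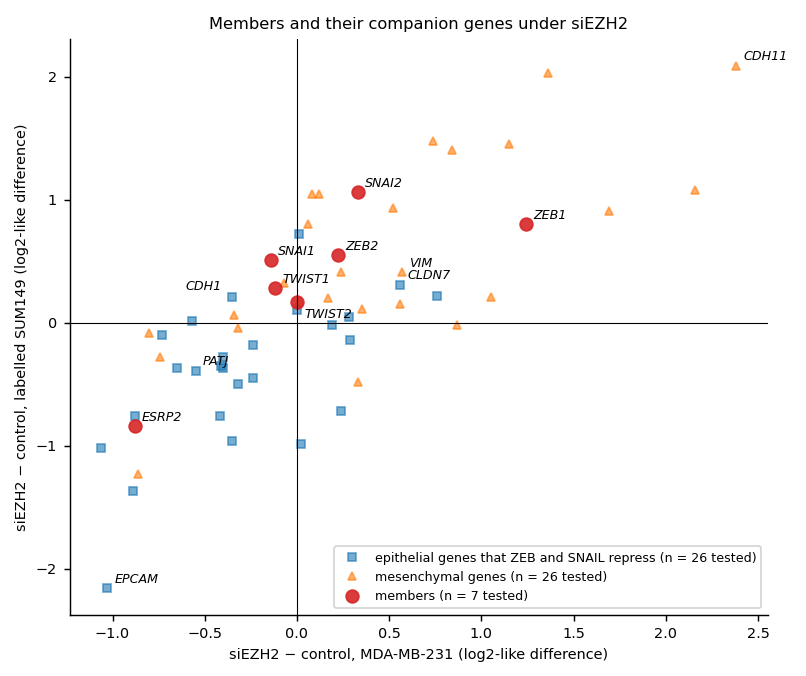
Log2-like difference under siEZH2 in MDA-MB-231 (x axis) and in the libraries labelled SUM149 (y axis); each point is a gene, with red circles for the 7 tested members, blue squares for 26 epithelial genes that ZEB and SNAIL repress and orange triangles for 26 mesenchymal genes. ZEB1 lies at 1.24 and 0.80, SNAI2 at 0.33 and 1.06 and ESRP2 at -0.88 and -0.84, on the side of EPCAM at -1.03 and -2.16.

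Of 27 other EMT transcription factors 18 were tested. The called share was 61.1% in each set of libraries, near the 56.6% and 58.0% of all genes. In MDA-MB-231 7 rose and 4 fell, and HMGA2 (1.23 ± 0.07), SOX4 (0.92 ± 0.07) and RUNX2 (0.62 ± 0.10) were among those that rose. Those labelled SUM149 had 8 that rose and 3 that fell, led by HMGA2 (1.63 ± 0.07), TCF4 (0.69 ± 0.08), FOSL1 (0.62 ± 0.13) and SMAD3 (0.55 ± 0.06). HMGA2 thus fell under siRelB and rose under siEZH2 in both, as SNAI2 did. Of the 22 other epithelial transcription factors and splicing regulators tested, 7 rose and 10 fell in MDA-MB-231, and 7 rose and 8 fell in the libraries labelled SUM149. Their called share was 77.3% and 68.2%, beside 56.6% and 58.0% of all genes. EHF, an epithelial ETS factor, rose in MDA-MB-231 (2227 to 4471 recovered counts, 0.93 ± 0.06), and so did the splicing factors MBNL1 (0.79 ± 0.06) and QKI (0.71 ± 0.06), the latter known to act on exons that change in EMT. KLF4 (-0.74 ± 0.06) and KDF1 (-0.79 ± 0.06) fell and ID1 (0.95 ± 0.09) and ID2 (0.75 ± 0.07) rose in the libraries labelled SUM149.

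Among the 31 cofactors and stability factors tested, 8 rose and 10 fell in MDA-MB-231, and 7 rose and 11 fell in the libraries labelled SUM149, shares near those of all genes. LOXL2, a lysyl oxidase that stabilises Snail, rose in both (0.53 ± 0.08 and 0.68 ± 0.08), as did the LIM protein LIMD1 (0.85 ± 0.07 and 0.47 ± 0.07). LOXL3 fell in the libraries labelled SUM149 (-0.76 ± 0.08). Of the 14 genes spliced under ESRP control, 6 rose and 1 fell in MDA-MB-231, and 7 rose and 1 fell in the libraries labelled SUM149, which is 50.0% and 57.1% called, at or below the 56.6% and 58.0% of all genes. CD44 had the largest difference in both (0.62 ± 0.08 and 1.15 ± 0.08), and EXOC7 (0.35 ± 0.07 and 0.46 ± 0.07) and NUMB (0.30 ± 0.07 and 0.38 ± 0.07) rose as well. The 1 that fell was ARHGEF11 in MDA-MB-231 (-0.16 ± 0.06) and ENAH in the libraries labelled SUM149 (-0.19 ± 0.05), both named after their values were seen. These are totals over transcripts, and the exons that ESRP proteins control cannot be read from them.

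The tested genes whose profile was nearest to that of a member, by Euclidean distance between centred log2 values, were listed as a description. Over the 6 libraries of the first experiment ZEB1 was nearest to TSR1 (distance 0.09), CHMP2B (0.11) and ANGEL2 (0.12), and SNAI2 to ABCC10 (0.07), TRAM2 (0.11) and DNAJC14 (0.11). Over the 8 libraries of the second, ZEB1 was nearest to PICALM (0.13), LRRFIP2 (0.16) and TMEM158 (0.18), SNAI2 to COL4A1 (0.21), SORBS2 (0.24) and KCNJ15 (0.29), and ESRP2 to CLNS1A (0.17), MRPL30 (0.20) and VDAC3 (0.21). ZEB2 was nearest to RASGRF1 (0.12), SNAI1 to SOX5 (0.23), TWIST1 to C14orf132 (0.20) and TWIST2 to RFLNB (0.15). The libraries of a line share its level, so the second set of distances follows the line as well as the siRNA.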

How the data were processed

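The 10 genes and the gene lists around them were chosen with earlier results of these data known. Raw counts of reads per Ensembl gene were deposited for the first experiment, for which the submitters' processing notes give hg19, DESeq2 1.20.0, featureCounts 1.5.0-p3 and HISAT2 2.0.5. For the second, the deposited values are variance-stabilised, on a log2 scale, per gene symbol; the same notes give hg19, DESeq2, Salmon, STAR 2.5.2b and cutadapt. The experiments were sequenced at different facilities, per the labels' protocols. Neither the tools' roles nor the annotation release or strand setting are stated there.

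Counts of all 6 libraries went into the quasi-likelihood test of edgeR 4.0.16 (TMM, filterByExpr, 15930 genes, 3 residual degrees of freedom). The 8 variance-stabilised libraries went into limma 3.58.1 (eBayes with a variance trend; 12356 genes that exceeded the table's floor by 1 or more in 2 or more libraries; 4 residual degrees of freedom). Benjamini-Hochberg adjustment was over all genes tested, with calls at 0.05. With 2 libraries per group, p-values set each difference against the spread between replicate cultures. That spread was pooled over the groups of an experiment and moderated across genes. Errors are standard errors for differences and SDs for levels. Folds are ratios of mean CPM or mean recovered counts, since the variance-stabilised scale understates the fold of scarce transcripts. The transformation was inverted from its floor; 89.1% to 92.6% of low values then lay within 0.15 of a whole number of reads. Replicates of the first experiment differed beyond sampling noise (chi-square per degree of freedom 8.83 to 11.5). All members are named in every comparison; of each list, at most 4 called genes with the largest change are named, plus CDH1 and VIM (1 gene that this rule picks is not reported here); for likeness, the 3 nearest genes. GENCODE v44 (GRCh38) gave positions and RefSeq (GRCh38.p14) sequences. Alternatives were RLE size factors, DESeq2 1.42.0, other filters, quantile normalisation, no variance trend, recovered counts, a replicate block, each library left out, and another gene length; a fit to 1 line at a time was added after the data were seen.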

Additional observations from a re-analysis of the deposited data

Results flagged for a closer look

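The effect of siEZH2 differed between the libraries labelled SUM149 and MDA-MB-231 for 5 members by the limma test of the difference itself. It was more positive in the libraries labelled SUM149 for SNAI2 (0.73), SNAI1 (0.64), TWIST1 (0.40) and ZEB2 (0.33), and less positive for ZEB1 (-0.44). For SNAI2 and ZEB1 the difference was also called on recovered counts (0.77 and -0.45 on the log2 scale). It was called there for SNAI1 too (1.89), which had only 12.5 to 33.1 recovered counts in MDA-MB-231. Recovered counts derive from the same values, so these calls are no separate evidence. SNAI1 and TWIST1 passed the limma filter only through the libraries labelled SUM149, so no line difference is read from their limma calls. TWIST1 had at most 1 read per library in MDA-MB-231, where no effect of it can be seen. The knockdown itself differed in depth, with EZH2 9.08-fold lower in MDA-MB-231 and 5.54-fold lower in the libraries labelled SUM149 (difference 0.51 ± 0.10), and its part in these values was not tested.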

How the results depend on the processing

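Under the alternatives no called member difference changed direction. Of the members' values in settings where the member was still tested, 533 kept their side of the threshold and 19 lost the call. The latter belong to ZEB1 under siRelB, ZEB2 and TWIST2 under siEZH2, and the differences between the lines of ZEB2 and TWIST1. Their values stand beside the results. TWIST2 was no longer tested when the first or the second siEZH2 library labelled SUM149 was left out. Its calls under siEZH2 and between the controls were lost there and are not among these values. Leaving out each library in turn gave 1624 to 3287 called genes under siRelA, 1520 to 3362 under siRelB and 1611 to 2532 for the difference between the siEZH2 effects, with 1 to 2 members called under siRelB. The low values came without either control library under siRelA (1624 and 1786) and siRelB (1754 and 1520), and for the difference between the effects without either MDA-MB-231 control (1611 and 1683) or the second siEZH2 library labelled SUM149 (1772). The cause was not tested beyond there being fewer samples.

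The replicate numbers did not pair the libraries: the correlation of deviations between libraries of the same number was -0.0245 to 0.0476 in the first experiment and -0.207 to 0.0879 in the second. With the replicate block 2958 genes were called under siRelA, 2828 under siRelB, 6827 under siEZH2 in MDA-MB-231 and 6989 in the libraries labelled SUM149, and no member call changed. On recovered counts edgeR called 7190 and 7462 genes under siEZH2. It called 6 members against 4 in MDA-MB-231, where ESRP1 and GRHL2 were added, and 6 against 7 in the libraries labelled SUM149, where TWIST2 was lost. It called 8 against 6 between the controls, where ESRP1 and GRHL2 were added, and 4 against 5 for the difference between the effects, where ZEB2 and TWIST1 were lost and GRHL2 was added. ESRP1 and GRHL2 entered this fit only through the libraries labelled SUM149, so no result is read from these added calls between the lines. With 3 and 4 residual degrees of freedom and at most 59 counts, differences of SNAI1 in the first experiment were not detectable at the sizes seen for ZEB1 and SNAI2.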
